A study of Mus musculus with 71 samples.

Results

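Dusp1, Dusp4, Dusp5, Dusp6, Spry1, Spry2, Spry4 and Spred1 encode feedback inhibitors of the ERK signalling cascade. These 8 genes were taken by symbol from the 37681 genes present in all 6 expression tables of the series, and all 8 passed the filters on low values in every comparison. The samples were RNA-seq libraries of nucleus accumbens (NAc), ventral tegmental area (VTA) and prefrontal cortex (PFC) micro-punches from adult male and female wild-type mice, C57BL/6 in the labels and C57BL/6J in the study's methods. The mice, which had first been trained to work for food, carried a jugular catheter and self-administered cocaine or, as controls, saline in daily sessions, and tissue was taken after 1 or 28 days of abstinence. The 71 libraries formed 12 groups of region, treatment and day, of 6 libraries each, or 5 for the saline VTA at 28 days. The labels gave no animal for a library, so it is not known which regions came from the same mouse, and p-values measure the spread between libraries.

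ERK is the last kinase of a relay that runs from receptor tyrosine kinases and calcium entry through Ras, Raf and MEK. Its activity in neurons follows synaptic and dopamine signals, and it drives transcription of immediate early genes. The cascade also induces its own inhibitors. Dual-specificity phosphatases remove the phosphates that activate MAP kinases: Dusp1 is a nuclear phosphatase with p38 and JNK as well as ERK among its substrates, Dusp4 and Dusp5 are nuclear, and Dusp6 is cytoplasmic and selective for ERK. Sprouty proteins (Spry1, Spry2, Spry4) act upstream, between receptor tyrosine kinases and Raf, and Spred1, a Sprouty-related protein, recruits the Ras GTPase-activating protein neurofibromin.

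Upstream sequences are shown for Dusp1 and Dusp5, whose levels moved most closely together across libraries. They are the 250 bases before the RefSeq start site in build GRCm38.p6, chr17:26508473-26508722 on the minus strand and chr19:53528895-53529144 on the plus strand, written 5′ to 3′, with the CRE of Dusp1 and the CArG boxes of Dusp5 in capitals.
Dusp1: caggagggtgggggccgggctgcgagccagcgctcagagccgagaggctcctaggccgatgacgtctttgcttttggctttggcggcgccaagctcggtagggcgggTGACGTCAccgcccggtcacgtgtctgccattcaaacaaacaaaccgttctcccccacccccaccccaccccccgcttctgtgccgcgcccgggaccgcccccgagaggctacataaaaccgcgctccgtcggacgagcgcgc
Dusp5: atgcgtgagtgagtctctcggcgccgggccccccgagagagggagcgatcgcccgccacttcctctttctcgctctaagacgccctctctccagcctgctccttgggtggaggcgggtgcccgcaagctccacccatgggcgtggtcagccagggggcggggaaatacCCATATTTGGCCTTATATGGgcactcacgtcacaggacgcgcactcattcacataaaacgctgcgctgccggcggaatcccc
The Dusp1 window held 1 cAMP response element (CRE, TGACGTCA, the palindrome bound by CREB), 143 to 136 bases before the start, and a separate core of the CRE (TGACG) 191 to 187 bases before it. Of 32851 promoter windows of this length, 1.55% held the full CRE and 17.77% the core. The Dusp5 window held 2 adjacent CArG boxes, the element bound by serum response factor, at 82 to 73 and 72 to 63 bases before the start, and 1 CRE core on the opposite strand at 55 to 51. A CArG box was found in 1.47% of windows. G and C made up 68.4% of the Dusp1 window and 64.0% of the Dusp5 window, against a median of 52.4% over all windows. The shares given were not matched for this.

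The other windows read, those of Dusp6, Spry1, Spry2 and Spred1, held none of these letters, and none of the 6 windows held an AP-1 site (TGANTCA, in 6.75% of windows) or an NBRE (AAAGGTCA, the site of Nr4a1 and its relatives, in 1.34%). Both strands were searched. No window was read for Dusp4 or Spry4. These matches describe letters in a window of fixed length and were not compared with any measurement of binding.

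The genes lie on 8 chromosomes in mm9, the build of the deposited tables, all are protein-coding and none overlaps another annotated gene. Dusp1 is at chr17:26642535-26645464 on the minus strand, Dusp4 at chr8:35870351-35882948 on the plus strand, Dusp5 at chr19:53603599-53616921 on the plus strand and Dusp6 at chr10:98725865-98730122 on the plus strand. Spry1 is at chr3:37538869-37543520 on the plus strand, Spry2 at chr14:106291166-106296036 on the minus strand, Spry4 at chr18:38745922-38760922 on the minus strand and Spred1 at chr2:116947110-117008015 on the plus strand.

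All 8 genes had reads in every library. Libraries held 20971967 to 49700932 reads assigned to genes. Spred1 had the deepest coverage, with 2289 to 7808 reads per library, followed by Dusp6 with 237 to 2678, Spry2 with 359 to 2556, Dusp1 with 229 to 1741, Spry4 with 198 to 891, Spry1 with 85 to 497 and Dusp4 with 68 to 436. Dusp5 had 17 to 468 reads, with the fewest in VTA libraries, so its VTA values are the least precise.

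The labelled regions were checked against their markers. The midbrain dopamine gene Th ranged from 102.6 to 622.3 RPKM (reads scaled by gene length and library size) in VTA libraries and was at most 9.70 RPKM elsewhere. Drd1a was 54.9 to 114.3 RPKM in NAc, at most 1.21 RPKM in VTA and at most 34.9 RPKM in PFC. The cortical gene Tbr1 was 24.6 to 47.3 RPKM in PFC and 0.355 to 23.2 RPKM in NAc. Summed cortical excitatory markers varied from 42.1 to 438.0 RPKM over the NAc libraries, so these differed in their cortical signal. Saline PFC library 4 at 28 days had a summed striatal marker level of 1366.0 RPKM against 89.98 to 125.6 RPKM in the other 11 PFC libraries of that day. In the VTA the cortical excitatory marker sum varied from 47.4 to 132.7 RPKM. Of these markers Slc17a7, the vesicular glutamate transporter VGLUT1, ranged from 1.03 to 70.5 RPKM, while Tbr1 stayed at or below 0.297 RPKM.

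In saline mice at 28 days the abundant members were Spred1 and Spry2 and the sparse ones Dusp4, Dusp5, Spry1 and Spry4, in all 3 regions. All levels below are RPKM, which allow for gene length. In NAc (n = 6) Spred1 was at 25.2 ± 3.00 (SD), Spry2 at 22.6 ± 3.53, Dusp6 at 8.64 ± 1.58, Dusp1 at 8.33 ± 1.89, Spry1 at 3.56 ± 0.266, Dusp5 at 2.84 ± 0.558, Spry4 at 2.29 ± 0.413 and Dusp4 at 1.97 ± 0.523. In this order Spred1 and Spry2, Dusp6 and Dusp1, and Spry4 and Dusp4 lay within each other's SD.

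In PFC (n = 6) the order had the same first 4 genes, with Spred1 at 23.9 ± 2.55 RPKM (SD), Spry2 at 20.5 ± 1.22, Dusp6 at 15.8 ± 3.32 and Dusp1 at 11.1 ± 2.63. Dusp5 at 3.58 ± 0.902, Spry4 at 3.30 ± 0.377, Dusp4 at 2.72 ± 0.350 and Spry1 at 2.70 ± 0.355 followed, and of these Dusp5 and Spry4, and Dusp4 and Spry1, lay within each other's SD. In VTA (n = 5) Spred1 was at 14.7 ± 1.46 RPKM, Spry2 at 9.83 ± 0.542, Dusp1 at 6.81 ± 2.62, Dusp6 at 4.51 ± 0.734, Spry4 at 3.60 ± 0.338, Spry1 at 3.42 ± 0.404 and Dusp4 at 2.62 ± 0.599. Dusp5 was the lowest VTA member at 0.897 ± 0.389 RPKM.

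**Figure D1:**
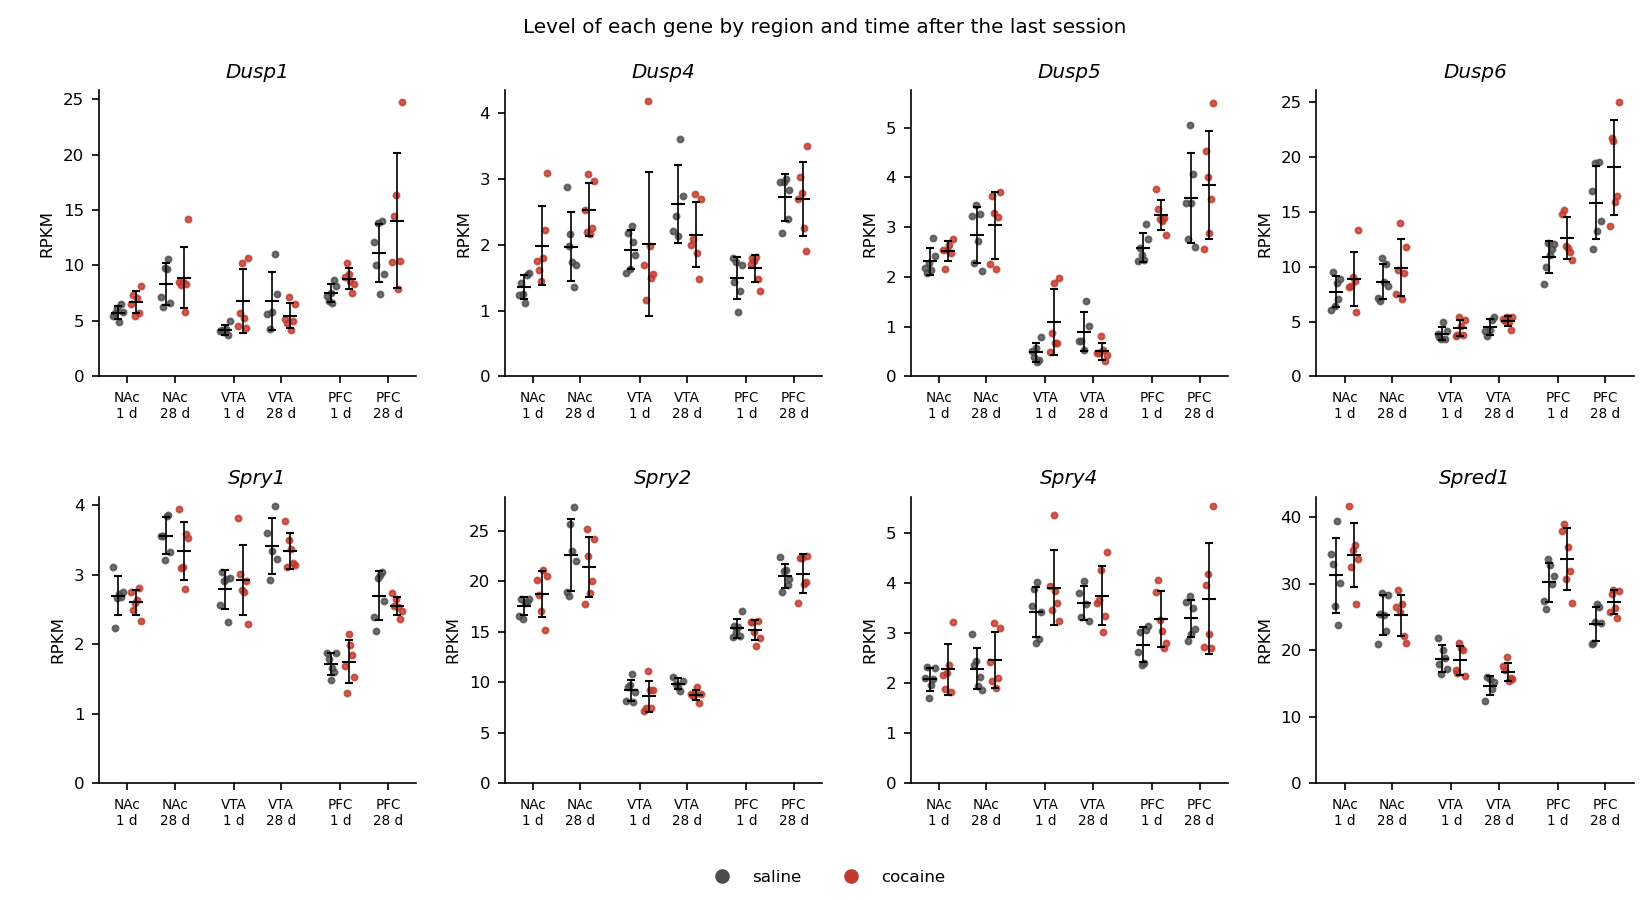
RPKM of each of the 8 genes (y axis, linear from 0) in every library by region and day (x axis), with saline in grey, cocaine in red, and bars for the mean and SD of each group. Dusp5, Dusp6, Spry2 and Spred1 sit lowest in the VTA, whereas saline and cocaine points overlap in every pair. Levels of different days come from separately normalised tables.

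The regional comparison asked where each feedback gene is highest without the drug, in 1 edgeR fit of the 17 saline libraries at 28 days. Dusp5, Dusp6, Spry2 and Spred1 were lower in VTA than in both forebrain regions. Of the members, 4 were higher and 2 lower in NAc than in VTA at an adjusted p under 0.05, where 29.8% of all 17181 genes tested were higher and 32.6% lower. Against PFC, NAc had 1 member higher and 3 lower (20% and 20.7% of all genes), and VTA had 1 higher and 5 lower (29.8% and 28.1%). Groups did not overlap for 5 members between NAc and VTA (39.8% of all genes), 2 between NAc and PFC (27.8%) and 4 between VTA and PFC (35.5%). Regional differences were thus common among all genes, and the values of single members carry the description. The regions also differed in glial markers. Summed oligodendrocyte markers averaged 4978 RPKM in these VTA libraries, 1608 RPKM in NAc and 1683 RPKM in PFC. Of 8 astrocyte markers, 6 were lower and 2 higher in NAc than in VTA at an adjusted p under 0.05. The part of tissue composition in the regional values was not tested.

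Dusp5, a nuclear phosphatase for ERK, differed most between regions. Its saline levels at 28 days were 2.11 RPKM at the lowest, 2.98 at the median and 3.44 at the highest in NAc, and 2.60, 3.49 and 5.05 in PFC. The 5 VTA libraries were at 0.703, 0.709, 0.539, 1.52 and 1.01 RPKM. All VTA libraries therefore lay below all libraries of the other regions, although library 4 of the VTA came closest. Expression was 3.16-fold higher in NAc than in VTA (log2 1.66 ± 0.245 SE, edgeR adjusted p = 1.25e-05) and 3.93-fold higher in PFC than in VTA (log2 of VTA over PFC −1.98 ± 0.246, edgeR adjusted p = 2.04e-06). The 2 forebrain regions differed by −0.32 on the log2 scale (95% interval −0.777 to 0.142, adjusted p = 0.268), which did not pass the test.

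Dusp6, the cytoplasmic ERK phosphatase, was the member with a separate level in each region. Saline PFC libraries at 28 days ran from 11.6 through a median of 15.5 to 19.5 RPKM, NAc libraries from 6.87 through 8.40 to 10.8 RPKM, and the VTA libraries reached at most 5.38 RPKM. No 2 regions overlapped. PFC exceeded NAc 1.81-fold (log2 of NAc over PFC −0.86 ± 0.147, edgeR adjusted p = 1.40e-04) and exceeded VTA 3.47-fold (log2 of VTA over PFC −1.80 ± 0.161, edgeR adjusted p = 3.50e-08). NAc exceeded VTA 1.92-fold (log2 0.94 ± 0.158, edgeR adjusted p = 5.17e-05).

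Spry2 and Spred1, the 2 most abundant members, shared a pattern of like forebrain levels and a lower VTA level. Spry2 was 2.30-fold higher in NAc than in VTA (edgeR adjusted p = 7.04e-09) and 2.07-fold higher in PFC than in VTA (edgeR adjusted p = 4.11e-08). Spred1 was 1.72-fold and 1.62-fold higher, respectively (edgeR adjusted p = 1.30e-06 and 6.31e-06). For both genes the highest VTA library was below the lowest NAc and PFC library. Between NAc and PFC the log2 differences were 0.15 for Spry2 (95% interval −0.034 to 0.339) and 0.09 for Spred1 (−0.097 to 0.280), neither of which passed the test.

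Spry4 and Spry1 had other patterns. Spry4 was lowest in NAc, at 1.85 to 2.99 RPKM, against 3.24 to 4.05 RPKM in VTA and 2.84 to 3.74 RPKM in PFC. Its NAc level was 0.636 times the VTA level (log2 −0.65 ± 0.115, edgeR adjusted p = 8.74e-05), with no overlap, and 0.701 times the PFC level (log2 −0.51 ± 0.111, edgeR adjusted p = 0.00115), with overlap. Spry1 was lowest in PFC, with NAc 1.33-fold higher (edgeR adjusted p = 0.00271, no overlap) and VTA 1.28-fold higher (edgeR adjusted p = 0.00732). Its NAc and VTA levels differed by 0.06 on the log2 scale (95% interval −0.158 to 0.279).

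Dusp1 and Dusp4 were the members with the least stable regional order. Dusp1 was lower in VTA than in PFC (log2 −0.69 ± 0.225, edgeR adjusted p = 0.0139). Its difference between NAc and VTA of 0.29 (edgeR adjusted p = 0.270) was reduced by VTA library 4. That library stood at 11.0 RPKM while the other 4 were at 4.24 to 7.43 RPKM. Without that library the difference was 0.53 (edgeR adjusted p = 0.0309). Dusp4 was lower in NAc than in VTA (log2 −0.41 ± 0.172, edgeR adjusted p = 0.0455) and PFC (−0.45 ± 0.165, edgeR adjusted p = 0.0365), with overlap in both. On leaving out each of the 17 libraries in turn, the first call was lost 13 times and the second 8 times. Leaving out PFC library 4, with its high striatal markers, gave −0.39 (adjusted p = 0.0640) and −0.40 (adjusted p = 0.0756), and changed no regional call of another member.

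The same contrasts were made in the 18 saline libraries at 1 day and the 18 cocaine libraries at 28 days. At 1 day the VTA and PFC reads were recovered from the deposited RPKM values. Dusp5, Dusp6, Spry2, Spry4 and Spred1 passed the test between NAc and VTA in both sets, with log2 differences of 2.33 and 2.61 for Dusp5, 1.08 and 0.98 for Dusp6, 1.01 and 1.30 for Spry2, −0.64 and −0.60 for Spry4, and 0.82 and 0.60 for Spred1. Dusp1 was higher in NAc than in VTA in both (0.53, edgeR adjusted p = 3.58e-05, and 0.72, adjusted p = 0.0120) and lower in NAc than in PFC in both (−0.41, adjusted p = 8.67e-04, and −0.63, adjusted p = 0.0291). Dusp4 was −0.42 between NAc and VTA in saline mice at 1 day (adjusted p = 0.0139) but 0.24 in cocaine mice at 28 days (adjusted p = 0.176). The cocaine set used the same tables but no library of the saline set.

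**Figure D2:**
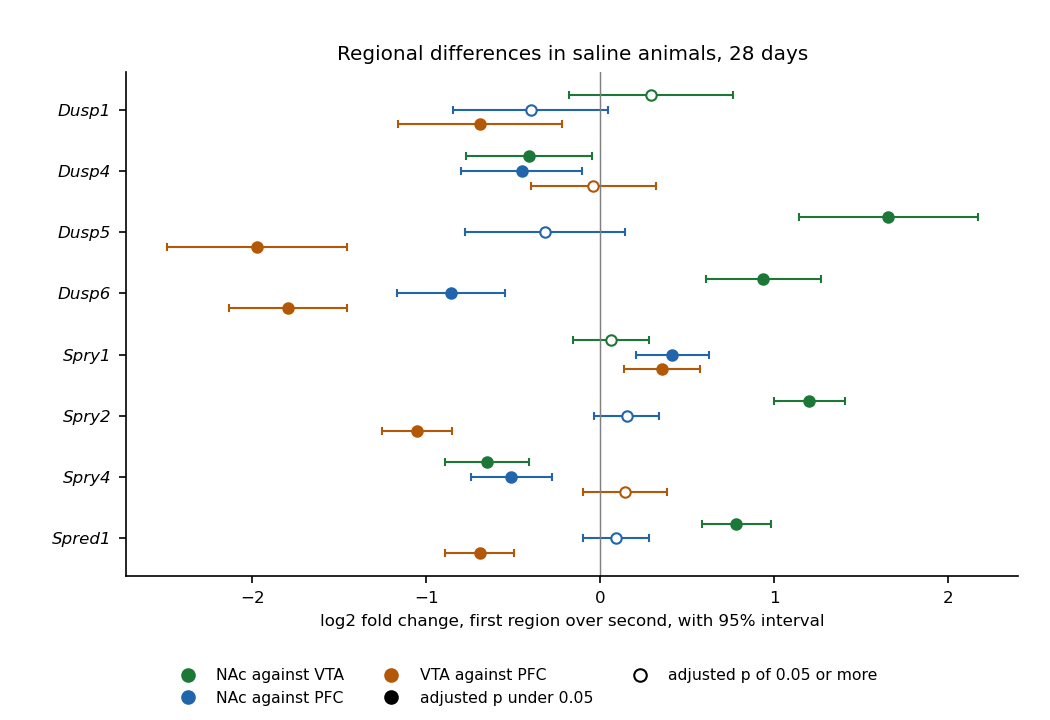
log2 fold change (x axis) of each gene (y axis) between pairs of regions in saline mice at 28 days, with 95% intervals. Filled points passed an adjusted p of 0.05 in edgeR. Dusp5 and Dusp6 have the widest spread across regions, reaching −1.98 and −1.80 for VTA against PFC.

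Genes around the 8 members also differed by region. Of 9 relatives (Dusp2, Dusp7, Dusp8, Dusp9, Dusp10, Dusp16, Spry3, Spred2 and Spred3), 6 were higher and 3 lower in NAc than in VTA. The higher ones were Dusp8 (log2 1.15, edgeR adjusted p = 1.36e-09), Dusp2 (0.86), Spred2 (0.71, adjusted p = 3.96e-06), Spry3 (0.61), Dusp7 (0.56, adjusted p = 3.92e-05) and Spred3 (0.22). The lower ones were Dusp9 (−1.445, adjusted p = 0.00124), Dusp16 (−0.99, adjusted p = 7.56e-08) and Dusp10 (−0.94, adjusted p = 1.90e-06). Of 14 receptor tyrosine kinases, 1 was higher and 8 lower in NAc than in VTA, the fibroblast growth factor receptors Fgfr1 (−0.87), Fgfr2 (−1.16) and Fgfr3 (−0.91) among the latter. Of 28 cascade genes, 14 were higher and 7 lower.

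Immediate early genes had wider regional differences than the members. Of 13 tested, 9 were higher and 3 lower in NAc than in VTA, with a median log2 difference of 2.31 against 0.54 over the 8 members and −0.03 over all genes. Egr3 differed by 6.90, Nr4a1 by 2.31 and Arc by 1.24, whereas Jun (−0.61) and Ier2 (−1.15) were lower in NAc. In VTA against PFC, 9 of 13 were lower and none higher, with a median of −2.44 against −0.69 over the members.

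The main comparison of the study was cocaine against saline within each region and day. None of the 8 genes passed an adjusted p of 0.05 in any of the 6 comparisons, with edgeR on counts in NAc at both days and in VTA and PFC at 28 days, or with limma on log2(RPKM + 0.1) in VTA and PFC at 1 day. Of all genes, 0.0126% passed in NAc at 1 day, 0.0% in NAc at 28 days, 0.186% in VTA at 1 day, 0.0% in VTA at 28 days, 0.00693% in PFC at 1 day and 0.0% in PFC at 28 days, so few calls were made anywhere. DESeq2, run on the same counts, also called 0 members in each of the 4 count comparisons, and so did edgeR on the reads recovered for the other 2. Saline and cocaine groups overlapped for all 8 genes in all 6 comparisons. Non-overlapping groups were found for 0.283% of all genes in NAc, 1.67% in VTA and 0.159% in PFC at 1 day, and for 0.221%, 1.51% and 0.226% at 28 days.

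At an unadjusted p under 0.05, 2 members stood out in NAc at 1 day (4.01% of all genes), 1 in NAc at 28 days (6.76%), 2 in VTA at 1 day (15.4%), 2 in VTA at 28 days (11.5%), 2 in PFC at 1 day (4.15%) and 1 in PFC at 28 days (5.66%). Of those at 1 day, Dusp1 was higher in cocaine mice in each of the 3 regions. The 8 genes were measured in the same libraries and are not independent of each other.

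**Figure D3:**
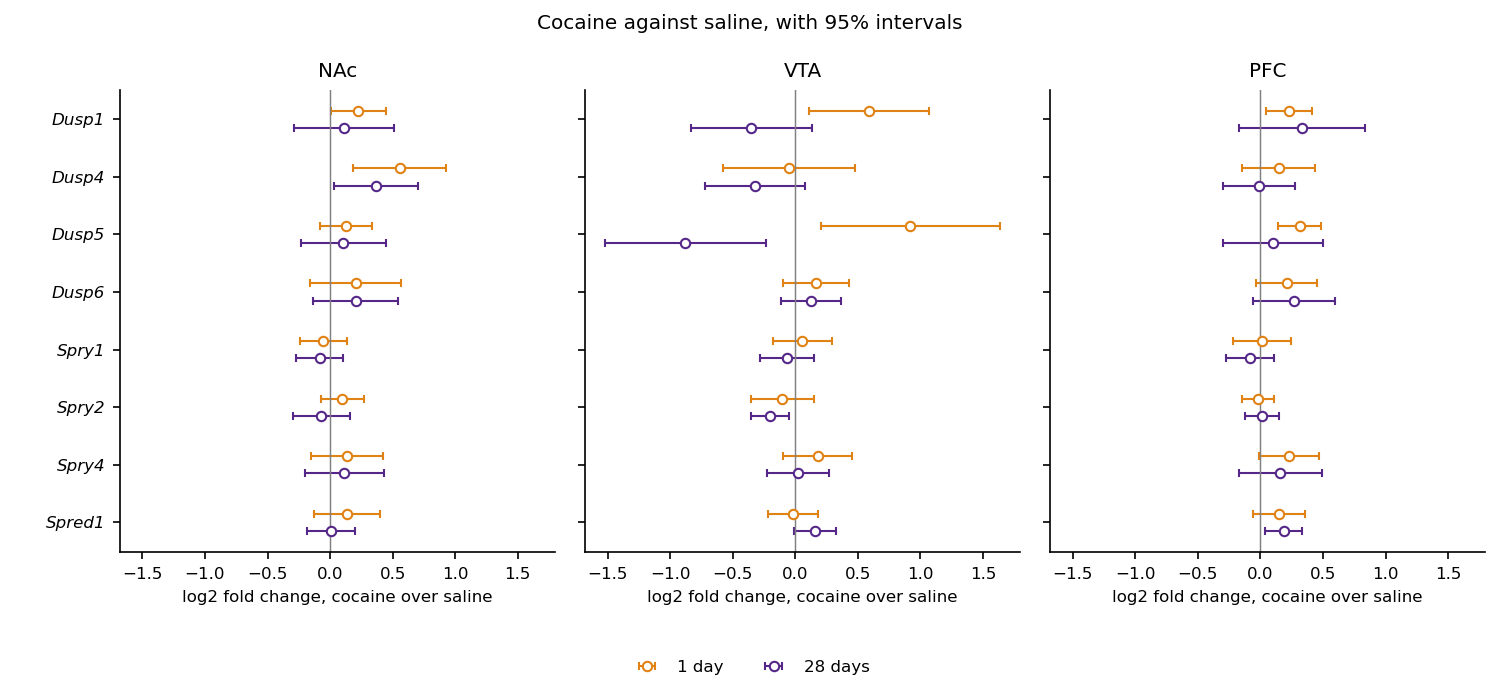
log2 fold change of cocaine over saline (x axis) with 95% intervals for each gene (y axis) in NAc, VTA and PFC at 1 day (orange) and 28 days (purple). No gene passed an adjusted p of 0.05. Dusp5 in VTA has intervals on opposite sides of 0 at the 2 days, at 0.92 and −0.88, and the other points lie between −0.35 (Dusp1 in VTA at 28 days) and 0.59 (Dusp1 in VTA at 1 day).

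In NAc at 1 day, 7 of 8 members had a higher mean in cocaine mice, with a median log2 difference of 0.13 against −0.001 over all genes. Dusp4, a nuclear phosphatase, was at 1.12 at the lowest, 1.34 at the median and 1.58 RPKM at the highest in saline mice and at 1.45, 1.78 and 3.09 RPKM in cocaine mice. All 6 cocaine libraries exceeded the saline mean, with overlap in the range 1.45 to 1.58 RPKM. The log2 difference was 0.56 (95% interval 0.184 to 0.927, unadjusted p = 0.00635, edgeR adjusted p = 0.990), and 0.38 without the highest cocaine library. That library, number 6, also had the highest summed level of cortical excitatory markers in NAc, 438.0 RPKM, where the other cocaine libraries of that day had 42.2 to 276.7 RPKM and saline libraries 51.1 to 330.5 RPKM. Dusp1 differed by 0.22 (0.005 to 0.444, edgeR adjusted p = 1.00), beside 16 glucocorticoid-responsive genes of which 7 were higher at an unadjusted p under 0.05 (median 0.21), and Spry1 was the only member below 0, at −0.05 (−0.244 to 0.138).

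At 28 days Dusp4 was again higher in NAc of cocaine mice. Saline libraries ran from 1.36 through 1.86 to 2.88 RPKM and cocaine libraries from 2.17 through 2.397 to 3.07 RPKM, so all 6 cocaine libraries exceeded the saline mean and only 2 saline libraries reached the cocaine range. The log2 difference was 0.37 (95% interval 0.032 to 0.703, unadjusted p = 0.0338, edgeR adjusted p = 0.692). The other members differed by −0.08 to 0.20. The change in the cocaine effect from 1 to 28 days, tested as an interaction in 1 edgeR fit of the 24 NAc libraries, lay between −0.18 (Dusp4) and 0.01 (Dusp6) and passed for no member, where 0.0181% of all genes passed and 5.27% had an unadjusted p under 0.05, as against 0 members. The 95% interval for Dusp4 was −0.683 to 0.328.

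In PFC at 1 day, 7 of 8 members had a higher mean in cocaine mice where 45.4% of all genes did. Dusp5 ran from 2.33 through 2.51 to 3.07 RPKM in saline and from 2.84 through 3.17 to 3.76 RPKM in cocaine mice. Each of the 6 cocaine libraries exceeded the mean of saline, and 1 saline library was above 2.84 RPKM. The difference of 0.31 on the log2(RPKM + 0.1) scale (95% interval 0.140 to 0.486) had an unadjusted p of 0.00179 and a limma adjusted p of 0.806. Dusp1 differed by 0.23 (0.048 to 0.416, limma adjusted p = 0.918), Spry4 by 0.23 (−0.012 to 0.469) and Dusp6 by 0.21 (−0.033 to 0.450). Spry1 and Spry2 differed by 0.02 and −0.02. Of the glucocorticoid-responsive genes, 10 of 16 were higher in this comparison at an unadjusted p under 0.05 (median 0.36), and 1 of them passed the adjusted test, Plin4 (2.17, limma adjusted p = 0.0117). That list was written with earlier results of these data known, and the part of its genes in the values of Dusp1 was not tested.

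In PFC at 28 days Spred1, which links Ras to neurofibromin, was at 20.9, 24.1 and 26.9 RPKM (lowest, median and highest) in saline and at 24.9, 27.4 and 29.1 RPKM in cocaine mice. All 6 cocaine libraries exceeded the saline mean, and the log2 difference was 0.19 (95% interval 0.040 to 0.331, unadjusted p = 0.0162, edgeR adjusted p = 0.842). Without saline library 4 it was 0.22. Dusp1 spread widely in cocaine mice, from 7.84 to 24.8 RPKM, and its difference of 0.33 (−0.169 to 0.837) fell to 0.10 without the highest library. The interaction of treatment and day in PFC, which was added after the data had been seen and used recovered reads at 1 day, passed for no member, with 0.00604% of all genes passing and 4.85% at an unadjusted p under 0.05, where 0 members were.

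The VTA showed the widest differences of single members. At 1 day Dusp5 was at 0.512, 0.392, 0.579, 0.291, 0.326 and 0.801 RPKM in saline libraries 1 to 6 and at 0.498, 0.877, 1.88, 0.668, 0.667 and 1.97 RPKM in cocaine libraries 1 to 6. Cocaine libraries 3 and 6 stood far above the rest, library 2 was above the highest saline library, and the other 3 lay within the saline range. The difference was 0.92 on the log2(RPKM + 0.1) scale (95% interval 0.204 to 1.64, unadjusted p = 0.0160, limma adjusted p = 0.234). The saline mean was 0.483 RPKM and the cocaine mean 1.09 RPKM. The filter of 0.5 RPKM applied to the mean of both groups together, and the saline mean alone was below it. Dusp1 was at 3.73 to 5.03 RPKM in saline mice, at 10.2 and 10.6 RPKM in cocaine libraries 3 and 6 and at 4.40 to 5.69 RPKM in the other 4, a difference of 0.59 (0.110 to 1.065, limma adjusted p = 0.247).

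At 28 days the VTA difference of Dusp5 had the opposite sign. Dusp5 was at 0.703, 0.709, 0.539, 1.52 and 1.01 RPKM in the 5 saline libraries and at 0.460, 0.462, 0.808, 0.532, 0.301 and 0.435 RPKM in the 6 cocaine libraries, of which none exceeded the saline mean. The log2 difference was −0.88 (95% interval −1.52 to −0.235, unadjusted p = 0.0116, edgeR adjusted p = 0.394), and −0.59 without saline library 4. Spry2 was at 10.5, 9.83, 9.51, 9.13 and 10.1 RPKM in saline and at 7.94 to 9.54 RPKM in cocaine libraries, a difference of −0.20 (−0.355 to −0.047, unadjusted p = 0.0149, edgeR adjusted p = 0.394). Spred1 differed by 0.16 (−0.011 to 0.322), and each of the 6 cocaine libraries exceeded the mean of saline.

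The change of the VTA effect from 1 to 28 days was tested in an interaction fit of all 23 libraries, added after the data had been seen. This fit used recovered reads at 1 day, whereas the comparison within that day used log2(RPKM + 0.1). The estimate for Dusp5 was −2.02 on the log2 scale (95% interval −3.06 to −0.972, unadjusted p = 5.90e-04, edgeR adjusted p = 0.162), and DESeq2 gave −1.99 (adjusted p = 0.0267), the only call of a member in any comparison of cocaine with saline. Dusp1 changed by −1.004 (−1.70 to −0.310, edgeR adjusted p = 0.176). No gene passed in edgeR (0.0% of all genes), while 15.6% had an unadjusted p under 0.05, and DESeq2 called 199 genes. The other 6 members lay between −0.34 and 0.22.

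The summed level of cortical excitatory markers moved with Dusp5 and Dusp1 in the VTA, though not every marker did. The cortical excitatory marker sum was 119.4 and 132.7 RPKM in cocaine libraries 3 and 6 at 1 day and 54.3 to 70.9 RPKM in the other 4, against 47.4 to 96.7 RPKM in saline. Of the 5 such markers tested, 3 were higher and 1 lower at an unadjusted p under 0.05. At 28 days saline library 4, the highest for Dusp5 and Dusp1, had the highest sum too, at 115.1 RPKM, with 58.1 to 85.9 RPKM in the other saline and 52.6 to 63.3 RPKM in cocaine libraries. At that day 3 of 7 markers tested were lower in cocaine mice at an unadjusted p under 0.05 and 3 of 7 had a higher mean (median −0.45). Slc17a7 was at 61.7, 70.5 and 68.6 RPKM in those 3 libraries and at most at 43.4 RPKM in the other VTA libraries. By contrast Lmo3, at 9.49, 12.1 and 6.67 RPKM, was lowest or next to lowest of its group in each of them, while Nrn1 was above the rest of its group in the cocaine libraries (41.3 and 43.2 RPKM) but within the range of the other saline libraries in saline library 4 (31.2 RPKM). Within groups, over the 23 VTA libraries, log2 Dusp5 had r = 0.88 (rho = 0.82) with the log2 marker sum and Dusp1 r = 0.79 (rho = 0.69), whereas Spry4 had r = −0.02 and Spred1 r = −0.07. Without the 2 libraries farthest from the median of the marker sum, r was 0.82 for Dusp5 and 0.67 for Dusp1.

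With the mean cortical marker level as a covariate, the difference of Dusp5 at 1 day was 0.23 (SE 0.228, limma adjusted p = 0.860) in place of 0.92, and at 28 days −0.19 (SE 0.306, edgeR adjusted p = 0.745) in place of −0.88. The change between days became −0.41 (SE 0.411, edgeR adjusted p = 0.971). For Dusp1 the values were 0.24, 0.12 and −0.13. Leaving out cocaine libraries 3 and 6 gave 0.45 for Dusp5 (limma adjusted p = 0.418) and 0.23 for Dusp1 (adjusted p = 0.329) at 1 day. The difference of Spry2 at 28 days was −0.25 (SE 0.0965, edgeR adjusted p = 0.160) with the covariate. The 28-day covariate, the covariate in the interaction and the omission of both libraries were added after the data had been seen. Tissue composition and expression per cell cannot be told apart in micro-punches.

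**Figure D4:**
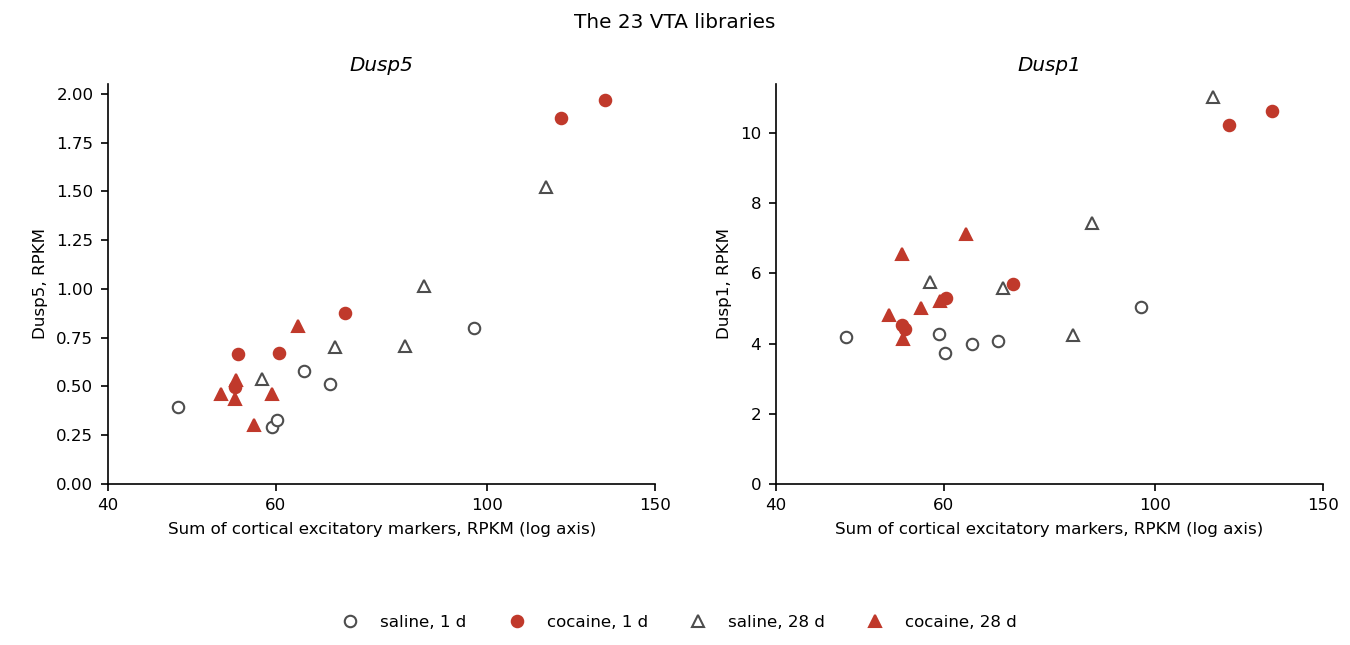
Dusp5 and Dusp1 (y axes, RPKM, linear from 0) against the summed RPKM of 8 cortical excitatory markers (x axis, log scale) in the 23 VTA libraries, circles for 1 day and triangles for 28 days, filled for cocaine. The 2 cocaine libraries at 119.4 and 132.7 RPKM and the saline library at 115.1 RPKM are the highest for both the markers and the genes.

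Other lists, written with earlier results of these data known, also differed in the VTA. At 1 day 11 of 16 glucocorticoid-responsive genes were higher at an unadjusted p under 0.05 and 1 of them passed the adjusted test, the lipid droplet gene Plin4 (log2 2.14, limma adjusted p = 0.0316). Of 8 microglial markers, 7 were lower at an unadjusted p under 0.05 (median −0.48), and of 7 midbrain dopamine markers 4 were lower (median −0.56). Endothelial markers had a higher mean for 8 of 8 at 1 day, 2 of them at an unadjusted p under 0.05 (median 0.29). At 28 days 4 of 8 endothelial (median −0.45), 3 of 8 microglial (median −0.45) and 3 of 16 glucocorticoid-responsive genes (median −0.365) were lower at an unadjusted p under 0.05. The change from 1 to 28 days was negative at an unadjusted p under 0.05 for 6 of 8 endothelial (median −0.74) and 13 of 16 glucocorticoid-responsive genes (median −0.92), the direction of Dusp5 and Dusp1, and none of them passed the adjusted test. At 1 day the summed glucocorticoid-responsive level was 630.3 and 675.6 RPKM in cocaine libraries 3 and 6 and 291.6 to 467.2 RPKM in the other 10 VTA libraries of that day. Dusp1 is itself a known glucocorticoid target. The part of these genes and cells in the values of Dusp1 and Dusp5 was not tested.

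Of the genes around the members, no relative, cascade gene, receptor tyrosine kinase or ERK output gene passed the adjusted test in any cocaine comparison. In NAc at 1 day, 0 of 8 relatives, 0 of 28 cascade genes, 2 of 14 receptors (Egfr 0.22 and Igf1r 0.17, both higher) and 0 of 10 output genes had an unadjusted p under 0.05, and at 28 days 2 cascade genes were lower and 1 output gene higher. In VTA at 1 day, no relative of 7 did, 2 of 28 cascade genes were higher and 1 lower, 2 of 14 receptors were higher, and 2 of 9 output genes were higher and 2 lower. The receptors were Kit (1.20, limma adjusted p = 0.0713) and Egfr (0.45, limma adjusted p = 0.117). In VTA at 28 days 4 of 9 relatives were higher, among them Spred3 (0.29, edgeR adjusted p = 0.394) and Dusp8 (0.23, edgeR adjusted p = 0.395), as were 6 cascade genes, while 2 cascade genes and 1 receptor were lower. In PFC each list had at most 2 such genes on either day.

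Immediate early genes in NAc at 1 day were higher for 6 of 13 at an unadjusted p under 0.05 and lower for none (median 0.37), led by Fos (0.95, edgeR adjusted p = 0.950) and Egr2 (0.87, adjusted p = 0.990). In PFC at 1 day 4 of 13 were higher, and in VTA 3 of 8. At 28 days the counts were 0 of 13 in NAc, 1 of 13 higher in PFC and 1 of 12 lower in VTA. Dusp1 and Dusp5 were therefore measured at 1 day beside immediate early genes with differences in the same direction. The 2 genes called in NAc were the glucocorticoid-responsive genes Hif3a (1.08, edgeR adjusted p = 0.0122) and Plin4 (2.57, adjusted p = 0.01995). The glucocorticoid-responsive list was written with earlier results of these data known, so their presence on it is no independent support.

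The members fell into those that followed immediate early genes from library to library and those that did not. Levels were taken as log2 deviations from the mean of each group, so that region, day and treatment were removed, over all 71 libraries. Against the mean of 8 immediate early genes, Pearson's r was 0.89 for Dusp1, 0.71 for Dusp6, 0.69 for Dusp5, 0.63 for Spry4, 0.53 for Spry2 and 0.45 for Dusp4, but −0.09 for Spry1 and −0.08 for Spred1. Spearman's rho was 0.83, 0.69, 0.67, 0.61, 0.57, 0.45, −0.08 and −0.06 in the same order. Libraries share their dissection and depth, and these values describe the libraries.

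Among the 28 pairs of members the median r was 0.32, with 7 pairs over 0.5 and 6 below 0. The closest pair was Dusp1 with Dusp5 at 0.74, at 0.63 in NAc, 0.81 in VTA and 0.77 in PFC. Dusp6 with Spry2 had r = 0.66, Dusp1 with Dusp6 0.65, Dusp4 with Spry4 0.64 and Dusp6 with Spry4 0.63. Some pairs differed by region: Dusp1 with Spry4 was at 0.83 in PFC but 0.38 in NAc and 0.33 in VTA, and Dusp5 with Spry4 was at 0.78 in PFC and 0.05 in VTA. Spry1 had r between −0.16 and 0.05 with every other member.

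**Figure D5:**
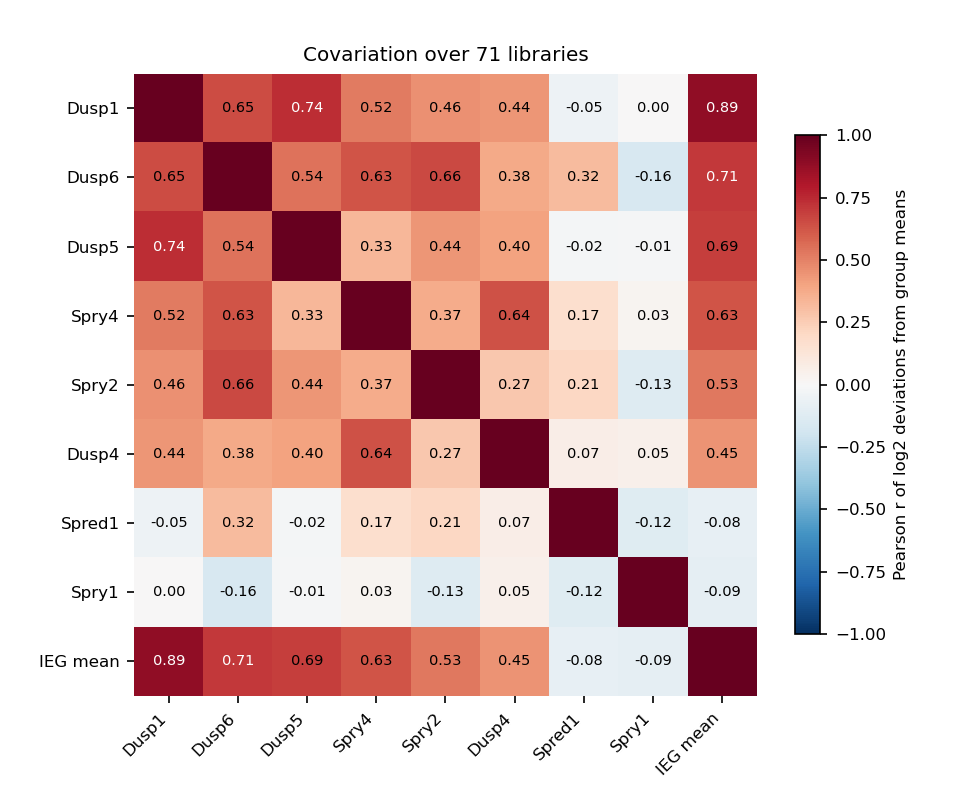
Pearson r between pairs of members, and of each with the mean of 8 immediate early genes (IEG mean), over 71 libraries after centring on group means. Rows and columns list the same genes in order of r with that mean. Dusp1 (0.89) heads the order, and Spred1 (−0.08) and Spry1 (−0.09) end it.

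The genes most like each member, of 13809 compared in the same 71 libraries, followed these kinds only in part. They included immediate early genes for Dusp1, Dusp5 and Dusp6, but not for Dusp4, Spry2 and Spry4, which also followed the immediate early mean. Dusp1 was most like Arc (r = 0.85), Fos (0.84) and Nr4a1 (0.83), all immediate early genes, with r of at least 0.79 in each region. Dusp5 was most like Fam43a (0.73), Bag3 (0.70) and Nr4a1 (0.70), though r with Fam43a was 0.86 in VTA and 0.03 in NAc. Dusp6 was most like Sema7a (0.75), a semaphorin, Ankrd56 (0.74) and the immediate early gene Ier5 (0.73). Dusp4 was most like Zbtb40 (0.62), Tmem151b (0.60) and the heat shock gene Hspa1a (0.59).

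Spry4 was most like Gpr3 (0.77), a constitutively active receptor that raises cAMP, Mfhas1 (0.72) and Irgq (0.68). Spry2 was most like Josd1 (0.68), Mxi1 (0.61) and D17Wsu92e (0.59). Spred1 had high values with Rmnd5a (0.86), the ubiquitin ligase Arih1 (0.82) and the phosphatase subunit Ppp1cb (0.80), none of them an immediate early gene. Spry1 had no gene above 0.55, the closest being 1700019G17Rik (0.55), Mxra7 (0.53) and Fam19a5 (0.52).

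In NAc, the members that followed the cortical excitatory marker sum most within groups were Dusp6 (r = 0.75, rho = 0.69, n = 24) and Spry4 (r = 0.65, rho = 0.60), with r of 0.64 and 0.50 without the 2 libraries farthest from the median. Dusp4 had r = 0.42 (rho = 0.31), and 0.21 without those libraries, and Spry2 had r = 0.27. Spry1 went the other way (r = −0.47), and Dusp1 (0.15), Dusp5 (0.20) and Spred1 (0.05) followed it little. Dusp6 and Spry4 were both higher in PFC than in NAc in saline mice at 28 days, as given above. The part of the cortical markers in the NAc values was not tested.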

How the data were processed

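RNA-seq was measured in 71 libraries of 12 groups, taken from the labels. The 28-day columns name a group but not a labelled sample, so libraries are numbered within groups, and 30 columns that match no sample were not used. The authors deposited raw counts of reads per gene for NAc at both days and for VTA and PFC at 28 days. The authors deposited RPKM values, scaled by gene length and library reads, for VTA and PFC at 1 day, and 100% of the genes with reads gave whole reads in every library when rescaled (tolerance 0.01 reads). The submitters' processing notes name mm9, STAR 2.4.1d, DESeq2 and edgeR. The deposited columns of log2 fold changes and p-values of cocaine against saline were not used.

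Counts were tested with edgeR 4.0.16 in R 4.3.3 (filterByExpr with a minimum count of 10 and total of 15, TMM, quasi-likelihood F test), and log2(RPKM + 0.1) with limma 3.58.1 over genes with a mean RPKM of at least 0.5. The Benjamini-Hochberg adjustment ran over all genes tested, and an adjusted p under 0.05 was a call. Levels at 28 days are RPKM from counts, gene lengths inferred from the deposited 1-day RPKM values, and TMM over that day's 35 libraries. NAc levels at 1 day used the same inferred lengths. Levels of separately normalised tables were not tested together. Libraries at 1 day held 20971967 to 30506640 reads and at 28 days 24522598 to 49700932.

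The members and gene lists were chosen with earlier results of these data known. The genes named are the 8 members, listed genes that were called or otherwise the 2 of a list with the smallest unadjusted p, and the 3 genes most correlated with each member. Alternatives were DESeq2 1.42.0, other scaling, filters and pseudocounts, recovered reads, a replicate block, a cortical marker covariate and leaving out each library. No within-group pair of libraries agreed within sampling noise (175 pairs compared, chi-square per degree of freedom of at least 4.59). The fits were tested on simulated data, where at least 97% of genes changed by 1 on the log2 scale were recovered in the NAc interaction run on 16462 genes. The simulation gave all genes the same spread and changed only genes with ample reads. It therefore checks that the fits run correctly and does not show how small a change of the 8 members could be detected.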

Additional observations from a re-analysis of the deposited data

Results flagged for a closer look

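In 3 of 96 combinations of gene and group, 1 library stood apart from its group by Dixon's test at the 95% level, where chance gives about 1 in 20, or 4.8 of 96. Dusp1 was at 14.2 RPKM in cocaine NAc library 6 at 28 days, against 8.48 RPKM in the next highest library. Dusp4 was at 4.19 RPKM in cocaine VTA library 3 at 1 day, against 1.99 RPKM in the next. Spry4 was at 5.37 RPKM in the same VTA library, against 3.95 RPKM. That library is also one of the pair with high cortical markers, at a sum of 119.4 RPKM. Within groups over the VTA libraries, r with that sum was 0.37 for Dusp4 and −0.02 for Spry4. The part of those markers in the values of this 1 library was not tested.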

How the results depend on the processing

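No member was called for cocaine against saline under any alternative within a region and day. In the VTA change between days, DESeq2 called 1 member (Dusp5) and 199 genes. DESeq2 also called 21 genes in NAc at 1 day, 14 in NAc and 74 in VTA at 28 days, 2 in PFC at 28 days, 10 in the NAc change and 6 in the PFC change. In VTA at 1 day, 2 genes were called without a filter, 55 on recovered reads, 0 with the cortical covariate, 9 without both libraries of high cortical sum and 13 with a replicate block, against 28. The cause of these shifts was not tested. With the replicate block, NAc and PFC at 1 day kept counts of 2 and 1 and no member was called. Same-numbered libraries at 1 day correlated from −0.599 to 0.712, and both extremes were between cocaine and saline libraries of NAc. Differently numbered libraries were not compared, so these values cannot show whether the numbers pair libraries. A replicate block was not fitted at 28 days, within or across regions, because the numbers in the column names there do not match the replicate numbers of the labels.

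Direction changed for Dusp4 in VTA at 1 day on recovered reads (0.016), Spred1 there with the covariate (0.077), and Dusp1 (0.119), Dusp4 (0.035) and Spry4 (−0.029) in VTA at 28 days with it. The VTA change of Dusp6 was 0.014 with DESeq2, 0.016 with its size factors, 0.034 without a filter and 0.15 with the covariate. In cocaine mice at 28 days Dusp4 was 0.243 for NAc against VTA and Spred1 −0.093 for NAc against PFC, and for VTA against PFC Dusp4 was 0.257 in saline mice at 1 day and 0.264 with the replicate block. Under these alternatives 391 values of single members kept direction and side of the threshold, 13 turned direction, 7 passed the threshold only then and 5 no longer did.

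Leaving out 1 library at a time gave 0 to 2 genes called in NAc at 1 day, 0 to 2 in NAc at 28 days, 0 (without cocaine library 3) to 54 (without cocaine library 6) in VTA at 1 day, 0 to 2 in PFC at 1 day, 1 to 5 in the NAc change and 0 to 13 in the VTA change. The direction of some members turned in cocaine comparisons. They were, in NAc at 28 days, Dusp1 (−0.079 to 0.204) and Spred1 (−0.045 to 0.052), and in VTA at 1 day, Dusp4 (−0.28 to 0.075), Spry1 (−0.02 to 0.122) and Spred1 (−0.057 to 0.028). In VTA at 28 days they were Spry1 (−0.112 to 0.002) and Spry4 (−0.043 to 0.081), and in PFC at 1 day, Spry1 (−0.043 to 0.092) and Spry2 (−0.034 to 0.014). In PFC at 28 days they were Dusp4 (−0.101 to 0.064), Dusp5 (−0.026 to 0.224) and Spry2 (−0.014 to 0.049). In the NAc change they were Dusp4 (−0.263 to 0.001, the latter without cocaine library 6 at 1 day, against −0.178), Dusp5 (−0.082 to 0.068), Dusp6 (−0.11 to 0.172), Spry1 (−0.072 to 0.03) and Spry4 (−0.097 to 0.124). In the VTA change they were Dusp4 (−0.451 to 0.009, the latter without cocaine library 3 at 1 day, against −0.34), Dusp6 (−0.099 to 0.077) and Spry2 (−0.125 to 0.023), and in the PFC change, Dusp1 (−0.142 to 0.215), Dusp6 (−0.045 to 0.119), Spry2 (−0.014 to 0.057) and Spred1 (−0.04 to 0.072). Between regions it turned for Dusp4 in VTA against PFC (−0.171 to 0.041).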
